A study of Mus musculus with 2 samples.

Results

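The genes described here encode the proteasome, its activators and inhibitor, and the factors that assemble it, in regulatory T cells (Treg cells, Foxp3-expressing CD4+ lymphocytes that hold immune responses in check). They were chosen by symbol alone: every gene of the table whose symbol begins with Psma, Psmb, Psmc, Psmd, Psme, Psmf or Psmg followed by a digit, without Psmb8, Psmb9 and Psmb10. This rule took 47 of the 24081 genes in the table, and it used no measured value. Of these, 46 belong to the proteasome or its assembly. The other, Psmc3ip, encodes a factor of meiotic recombination that was named after its binding to an ATPase subunit. A floor of 20 reads, averaged over both libraries, was passed by 45 of the 47 genes and by 10899 genes in all, called expressed below. Psma8 and Psmb11 were under it, and Psmc3ip passed through the KO library alone.

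The study asked whether SUMOylation, the coupling of SUMO modifiers to proteins, is needed for Treg cells to expand and function. CD4+ YFP+ Treg cells were isolated by flow cytometry from spleen and lymph nodes of 5-week-old C57BL/6 mice that carried Foxp3cre/wt, in which Foxp3-expressing cells make Cre recombinase and YFP marks them. Foxp3 lies on the X chromosome, so such mice also hold Treg cells without Cre. The KO library came from mice with both alleles of a SUMO pathway gene floxed, and the WT library from mice with 1 floxed and 1 wild-type allele, so the control cells also carry Cre and a floxed allele. Cells of 5 to 10 mice were pooled for each library. With 1 library per group, differences have no replicate check and no p-value. Groups were taken from the sample titles; the separate genotype field names wild type in both samples. The KO library had 23789264 reads assigned to genes and the WT library 11662867. Summed markers of Treg and T cells stood at 5845 CPM (counts scaled to a common total of gene reads) in the KO library and 4869 in the WT library, with all 6 genes of that list present. These genes did not move together. In KO and WT, Foxp3 stood at 1285 and 732 CPM, Il2ra at 1179 and 913, Cd4 at 2286 and 1991, and Cd3e at 811 and 755. Ikzf2, at 198 and 331, and Ctla4, at 86.4 and 147, were lower in the KO library. The 10 marker lists of other cell types summed to between 0.420 and 360 CPM in the KO library and between 0.343 and 407 in the WT library. The highest of these was the monocyte and macrophage list, with 3 of 4 genes in the table, and Tnfrsf17, Hba-a1, Hbb-bs, Foxn1, Psmb11 and Pdpn had no read in either library. The part of such cells in the values below was not tested.

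The proteasome is the barrel-shaped protease that degrades proteins tagged with ubiquitin. Its core particle (20S) is built of stacked rings of α and β subunits, and the proteolytic sites sit inside, on the β1, β2 and β5 positions. A regulatory particle (19S) caps the core: its base holds a ring of ATPases that unfold substrates, and its lid removes the ubiquitin chain. Lymphocytes also make the immunoproteasome, in which Psmb8, Psmb9 and Psmb10 take the place of the constitutive catalytic subunits. Cells coordinate the subunit genes largely through the transcription factors Nrf1 (Nfe2l1) and, under oxidative stress, Nrf2 (Nfe2l2), which bind antioxidant response elements.

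Most proteasome genes stood at nearly the same level in the KO and the WT library. The subunit that differed most was Psmb5, the constitutive β5 subunit with the chymotrypsin-like activity, which was 2.17-fold higher in the KO library (1.81 to 2.61). With a trend on GC content and transcript length removed (described further on), Psmb5 was 1.76-fold higher and the α subunit Psma2 1.73-fold higher. Members took 0.381% of gene reads in the KO library (0.379 to 0.383) and 0.388% in the WT library (0.385 to 0.392), with exact 95% binomial intervals. These are shares of raw totals, without the library scaling used for the folds. Of the 45 genes over the floor, 3 had a KO level 1.5-fold or more above that of the WT library, namely Psmb5, Psmg3 and Psmc3ip. These are 6.67% of the members, against 7.43% of all expressed genes. Without Psmc3ip, which is no proteasome gene and passed the floor through its KO reads, 2 of 44 remain, or 4.55%. None of the 45 was at least 1.5-fold lower, where 5.51% of all expressed genes were. The median log2 ratio of KO over WT was 0.04 for the members and 0.01 for all expressed genes. Its SD across genes was 0.33 among members and 0.46 among all expressed genes, and 68.9% of the members lay within 0.25 of the overall median on the log2 scale, against 54.4% of expressed genes. Members had a median of 794 scaled counts per kilobase of transcript in KO and 827 in WT, against 193 and 190 for all expressed genes. The sets were not matched for level, and counting error weighs more at low counts, in these shares and in those that follow.

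Read numbers were high enough to resolve small differences between these 2 libraries. Each fold below is the ratio of counts scaled by library size. It is given with an exact 95% interval for counting error, which holds no spread between mice and treats reads as independent. The interval lay above no difference for 17 members and below it for 11, which compares with 29.1% and 25.6% of all expressed genes. These are 37.8% and 24.4% of the members, so differences beyond counting error ran in both directions.

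**Figure D1:**
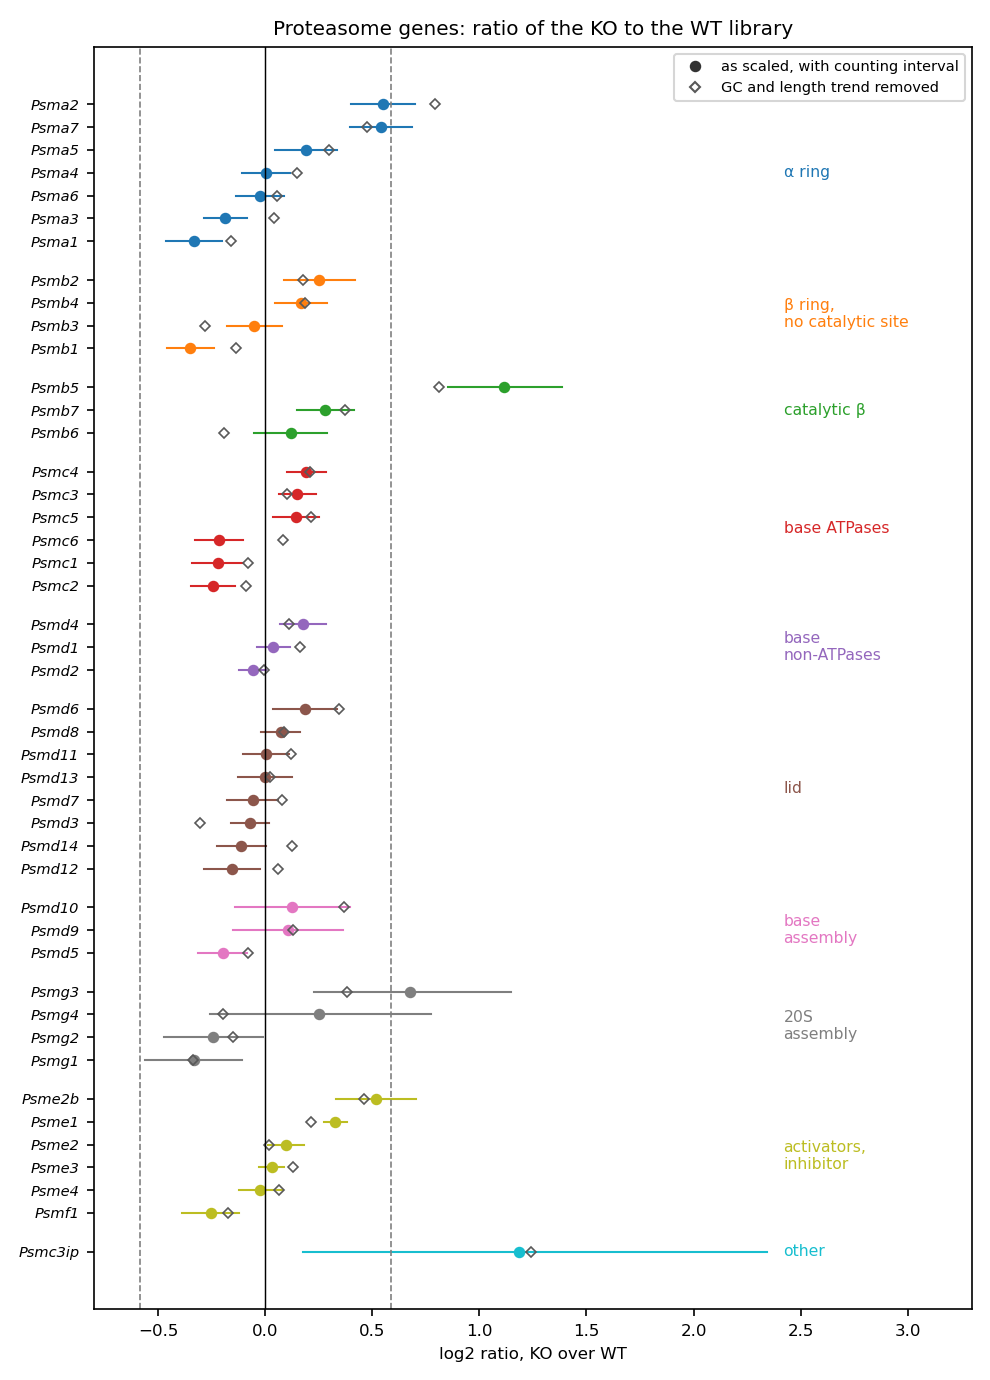
Log2 ratio of the KO over the WT library for the 45 proteasome-family genes over the floor, grouped by role. Filled points are ratios as scaled with their counting intervals (95%), open diamonds the ratios after a trend on GC content and transcript length was removed, and dashed lines mark 1.5-fold. As scaled, Psmb5, at a log2 ratio of 1.11, stands apart from the other subunits of the core, which lie between -0.35 and 0.55. With the trend removed, Psmb5 lies at 0.81 and Psma2 at 0.79.

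The promoter of Psmb5 is shown because this gene had the highest ratio of all subunits, and that of Psma1 because it had the lowest ratio among core subunits with an entry in the promoter table. Both are the 250 bases before the transcription start, from RefSeq on GRCm38.p6, on the minus strand, at chr14:54617996-54618245 and chr7:114276117-114276366. Capitals mark matches to TGACNNNGC, the core of the antioxidant response element, and to CCAAT, the box bound by NF-Y, each searched on both strands.
Psmb5: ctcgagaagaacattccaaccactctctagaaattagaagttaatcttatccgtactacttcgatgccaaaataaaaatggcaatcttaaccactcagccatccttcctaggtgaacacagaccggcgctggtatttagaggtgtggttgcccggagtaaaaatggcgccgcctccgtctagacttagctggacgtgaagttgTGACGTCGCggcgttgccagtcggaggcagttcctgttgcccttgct
Psma1: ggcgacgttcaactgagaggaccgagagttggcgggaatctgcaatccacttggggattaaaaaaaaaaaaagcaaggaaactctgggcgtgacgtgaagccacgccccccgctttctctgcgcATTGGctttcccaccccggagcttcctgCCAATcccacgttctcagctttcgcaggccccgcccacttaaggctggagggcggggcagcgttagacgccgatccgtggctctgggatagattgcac

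Of the 47 members, 39 had an entry in the promoter table, and 5 of them held a TGACNNNGC match in this window. The share was 12.8%, against 11.5% of the 27025 genes with an entry. The CCAAT box was found in 14 members, 35.9%, against 37.5% of all genes. The 5 TGACNNNGC windows are printed with up to 10 bases on each side, the match in capitals, to show how they differ in sequence and in distance from the start.
Psmb5: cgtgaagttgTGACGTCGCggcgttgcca
Psmb6: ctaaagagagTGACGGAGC
Psmd9: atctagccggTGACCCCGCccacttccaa
Psmc6: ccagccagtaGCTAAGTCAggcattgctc
Psmd12: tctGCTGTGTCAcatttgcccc
In Psmb5, Psmb6 and Psmd9 the match reads as written, and its last base lies at positions -39, -1 and -23 from the start. In Psmc6 and Psmd12 it lies on the other strand and ends at -219 and -239. The log2 ratios of the 5 genes ran from -0.22 for Psmc6 to 1.11 for Psmb5, with a median of 0.10, and the 33 members over the floor without a match had a median of 0.04.

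Among the catalytic subunits of the core, Psmb5 (chromosome 14, 54614119 to 54618022) had 616 reads in the KO library and 147 in the WT library. These scale to 467 and 216 counts, and the ratio of 2.17 had a counting interval of 1.81 to 2.61. As scaled, Psmb5 was the only member whose interval lay above 1.5-fold as a whole, and 98.9% of expressed genes had a lower log2 ratio. Psmb7, the β2 subunit with trypsin-like activity, had 1583 reads in the KO library and 674 in the WT library, 1.21-fold higher (1.11 to 1.33). Psmb6, the β1 subunit with caspase-like activity, had 882 and 420 reads in the KO and WT libraries, a ratio of 1.09 whose interval reached from 0.966 to 1.22. With the trend of the ratio on GC content and transcript length removed (described further on), Psmb6 turned to 1.14-fold lower (1.01 to 1.28). The interval of Psmb5 then reached below 1.5-fold (1.47 to 2.12), while that of the α subunit Psma2 lay above it (1.56 to 1.93). The exons of Psmb5 share 109 bases with the microRNA gene Mir686 on the same strand. Psmb5 has a processed pseudogene on chromosome 11, Psmb6 has pseudogenes on chromosomes X and 1, and Psmb7 has a pseudogene on chromosome X. Since reads with several alignments (15.0% in KO, 15.6% in WT) went to no gene, these subunits can be undercounted in both libraries.

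The 3 immunoproteasome subunits that replace these were higher in the KO library. Psmb8, the β5 counterpart of Psmb5, had 6171 reads in the KO library and 2244 in the WT library (1.42-fold higher, 1.35 to 1.49). Psmb10 was 1.35-fold higher (1.22 to 1.49) and Psmb9 1.22-fold higher (1.13 to 1.33). To set genes side by side, scaled counts were divided by transcript length in kilobases. At the β5 position, the immunoproteasome subunit stood 5.53 times above the constitutive subunit in the KO library (5.09 to 6.02) and 8.43 times in the WT library (7.13 to 10.03). The quotient of these, KO over WT, was 0.656 (0.541 to 0.792). At the β1 position Psmb9 stood at 1.29 times Psmb6 in the KO library and 1.14 times in the WT library, and at the β2 position Psmb10 stood at 0.771 times Psmb7 in the KO library and 0.694 times in the WT library. The quotients there were 1.13 (0.975 to 1.3) and 1.11 (0.968 to 1.27), and both intervals included 1. With the trend removed, an alternative added after seeing the data, the quotient was 0.760 (0.627 to 0.918) at β5, 1.32 (1.14 to 1.53) at β1 and 0.933 (0.814 to 1.07) at β2.

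**Figure D2:**
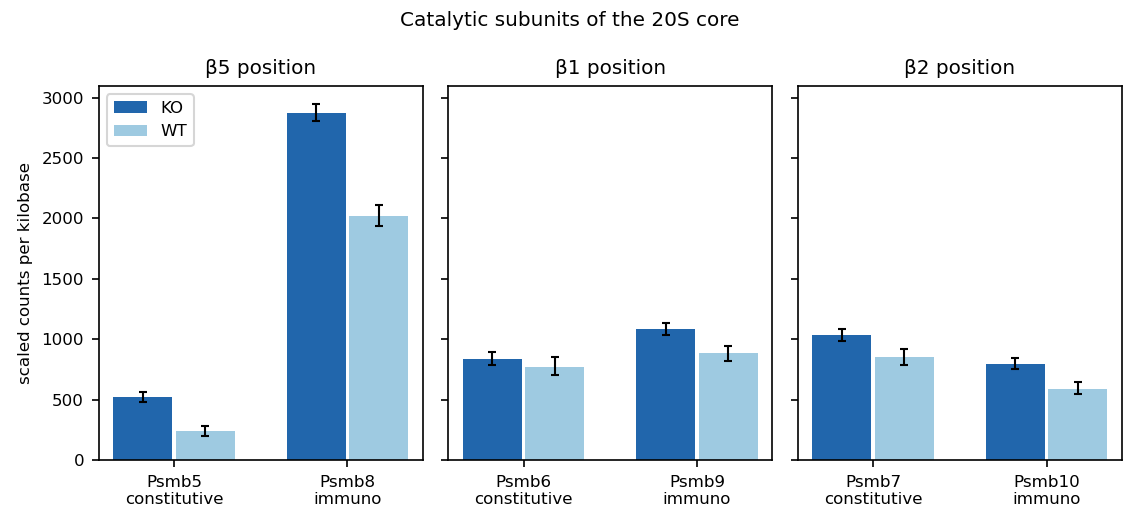
Scaled counts per kilobase of transcript for the constitutive and immunoproteasome subunit at each catalytic position, KO library (dark) left of WT library (light), 1 library each. Error bars are 95% Poisson intervals for counting error, and Psmb8 exceeds Psmb5 in both libraries while Psmb5 shows the largest ratio between them.

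The rest of the core split around no difference. In the α ring, which gates the entry to the barrel, Psma2 had 1380 reads in the KO library and 488 in the WT library (1.46-fold higher, 1.32 to 1.62). Psma7 had 1494 and 532 reads in the KO and WT libraries (1.45-fold higher, 1.31 to 1.61). As scaled, these 2 subunits came close to the 1.5-fold line without crossing it. Psma5, with 1240 and 562 reads in KO and WT, was 1.14-fold higher (1.03 to 1.26). Psma4 (1901 in KO, 981 in WT) and Psma6 (1887 in KO, 993 in WT) had intervals that included no difference. Psma3 had 2148 reads in the KO library and 1264 in the WT library, 1.14-fold lower in KO. Psma1, with 1241 reads in KO and 808 in WT, was 1.26-fold lower (1.15 to 1.38). The ring therefore spanned log2 ratios from -0.33 to 0.55 around a median of 0.00. An assembled core holds its 7 kinds of α subunit in equal numbers.

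The β subunits without a catalytic site also lay on both sides of no difference. Psmb2 was highest, with 994 reads in the KO library and 432 in the WT library (1.19-fold higher, 1.06 to 1.34), followed by Psmb4 with 1779 in KO and 820 in WT (1.12-fold higher, 1.03 to 1.22). Psmb3 had 1431 reads in KO and 767 in WT, and its interval included no difference. Psmb1, with 1679 reads in the KO library and 1106 in the WT library, had the lowest ratio of all 45 genes (1.27-fold lower, 1.18 to 1.37). The germ cell α subunit Psma8 had 2 reads in KO and 1 in WT, and the thymic cortical subunit Psmb11 had none in either library. A count of 0 allows up to 0.126 CPM in the KO library and 0.257 in the WT library.

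As scaled, all 17 subunits of the 19S regulatory particle with a Psmc or Psmd symbol differed by 1.18-fold or less. Their log2 ratios ran from -0.24 to 0.19, with a median of 0.00. With the trend removed, the range was wider, from -0.31 to 0.35, and the median was 0.09. The 6 ATPases of the base fell into equal groups by direction. Psmc4 (3073 reads in KO, 1392 in WT), Psmc3 (3356 and 1565) and Psmc5 (2231 and 1045) were 1.14-fold, 1.11-fold and 1.10-fold higher, with intervals of 1.07 to 1.22 for Psmc4, 1.04 to 1.18 for Psmc3 and 1.03 to 1.19 for Psmc5. Psmc6 (1747 reads in KO, 1050 in WT), Psmc1 (1539 and 928) and Psmc2 (2022 and 1238) were 1.16-fold, 1.17-fold and 1.18-fold lower, with intervals of 1.08 to 1.26 for Psmc6, 1.07 to 1.27 for Psmc1 and 1.10 to 1.27 for Psmc2. The transcripts of the 3 higher ATPases have a GC content of 51.6% to 55.1%, and those of the 3 lower ones of 37.0% to 49.5%.

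The scaffold and receptor subunits of the base differed less. Psmd4, which binds ubiquitin chains, had 2217 reads in the KO library and 1015 in the WT library (1.13-fold higher, 1.05 to 1.22). The scaffolds Psmd1 (3970 in KO, 2000 in WT) and Psmd2 (5475 in KO, 2950 in WT) had log2 ratios of 0.04 and -0.06, and both intervals included no difference. In the lid as scaled, 6 of the 8 Psmd subunits had intervals that included no difference, as did 4935 of the 10899 expressed genes. Among the 6 was Psmd14, the deubiquitinase that cuts the chain from the substrate (1810 reads in KO, 1011 in WT, log2 ratio -0.11). The others of these 6 were Psmd8 (3066 and 1509 reads), Psmd11 (2109 and 1089), Psmd13 (1522 and 788), Psmd7 (1654 and 891) and Psmd3 (2962 and 1608). Psmd6 was highest of these 8 (1190 reads in KO, 541 in WT, 1.14-fold higher, 1.03 to 1.26), and Psmd12 was lowest (1333 in KO, 768 in WT, 1.11-fold lower, 1.02 to 1.22). With the trend removed, Psmd6 was 1.27-fold higher (1.15 to 1.41) and Psmd3 1.24-fold lower (1.16 to 1.31). The interval of Psmd12 (0.953 to 1.14) then included no difference.

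Among the assembly factors with a Psmd or Psmg symbol, all but Psmd5 had fewer reads than each of the 17 Psmc and Psmd subunits of the 19S particle. This held in both libraries, for raw reads without a correction for transcript length. The chaperones Psmg1 to Psmg4 build the α ring, and their log2 ratios ran from -0.33 to 0.67. Psmg3 had 167 reads in the KO library and 54 in the WT library, 1.60-fold higher, but the interval of 1.17 to 2.22 reached below 1.5-fold. Its exons share 280 bases with those of Gm26938 on the same strand, which makes its count less certain. Psmg4, with 108 reads in KO and 47 in WT, could not be told from no difference (0.836 to 1.71). Psmg1, with 411 reads in KO and 268 in WT, was 1.26-fold lower (1.08 to 1.47), and its partner Psmg2, with 412 and 252, was 1.18-fold lower (1.01 to 1.39). Psmg1 and Psmg2 were thus lower and Psmg3 higher in the KO library as scaled. With the trend removed, the intervals of Psmg3 (0.957 to 1.81) and Psmg2 (0.769 to 1.06) included no difference. Of the chaperones that put the base together, Psmd5 had 1711 reads in KO and 1016 in WT (1.15-fold lower, 1.06 to 1.24). Psmd9 (391 in KO, 188 in WT) and Psmd10, also known as gankyrin (361 in KO, 171 in WT, 1.09-fold, 0.908 to 1.32), did not differ detectably as scaled at this depth. With the trend removed, Psmd10 was 1.29-fold higher (1.07 to 1.56), and the interval of Psmd5 (0.875 to 1.02) included no difference.

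The activators bind the ends of the core in place of the 19S cap. Psme1, a subunit of the interferon-inducible PA28αβ ring, had 10339 reads in the KO library and 4260 in the WT library, the largest numbers of any member. It was 1.26-fold higher (1.21 to 1.3), while its partner Psme2, with 3532 reads in KO and 1707 in WT, was 1.07-fold higher (1.01 to 1.13). Psme2b, an intronless gene close in sequence to Psme2, had 902 reads in KO and 326 in WT (1.43-fold higher, 1.26 to 1.63), and how reads divide between these copies is uncertain. Summed, the copies had 4434 reads in KO and 2033 in WT (1.13-fold higher, 1.07 to 1.19). Psme3, the nuclear PA28γ, had 7200 reads in KO and 3645 in WT, with an interval of 0.982 to 1.06. Psme4, the nuclear activator PA200, had 2322 and 1221 (0.917 to 1.05). Psmf1, known as the proteasome inhibitor PI31, was the lowest of this set, with 1199 reads in KO and 740 in WT (1.19-fold lower, 1.09 to 1.31). Psmc3ip, outside the proteasome, had 44 reads in KO and 10 in WT (2.28-fold higher, 1.13 to 5.07).

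Levels per kilobase differed between the roles in both libraries. The 14 constitutive core subunits had a median of 858 scaled counts per kilobase in the KO library and 853 in the WT library, and the 17 Psmc and Psmd subunits of the 19S particle 891 and 962. The base chaperones had medians of 192 in KO and 175 in WT, and the α ring chaperones of 221 and 237. Psme1 stood highest of all members, at 7053 in KO and 5619 in WT, followed by Psme2 at 2785 and 2603 and Psme3 at 2050 and 2007. In the KO library Psmb5 stood at 520 scaled counts per kilobase, above Psma2 at 360 and below the other 12 core subunits. In the WT library Psmb5 at 240 and Psma2 at 246 were the lowest of the 14, and their order was not resolved at this depth. Transcript lengths are those of the principal GENCODE transcript, so these levels rest on that choice. In RNA from pooled cells, fewer cells of a type and less RNA per cell cannot be told apart.

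**Figure D3:**
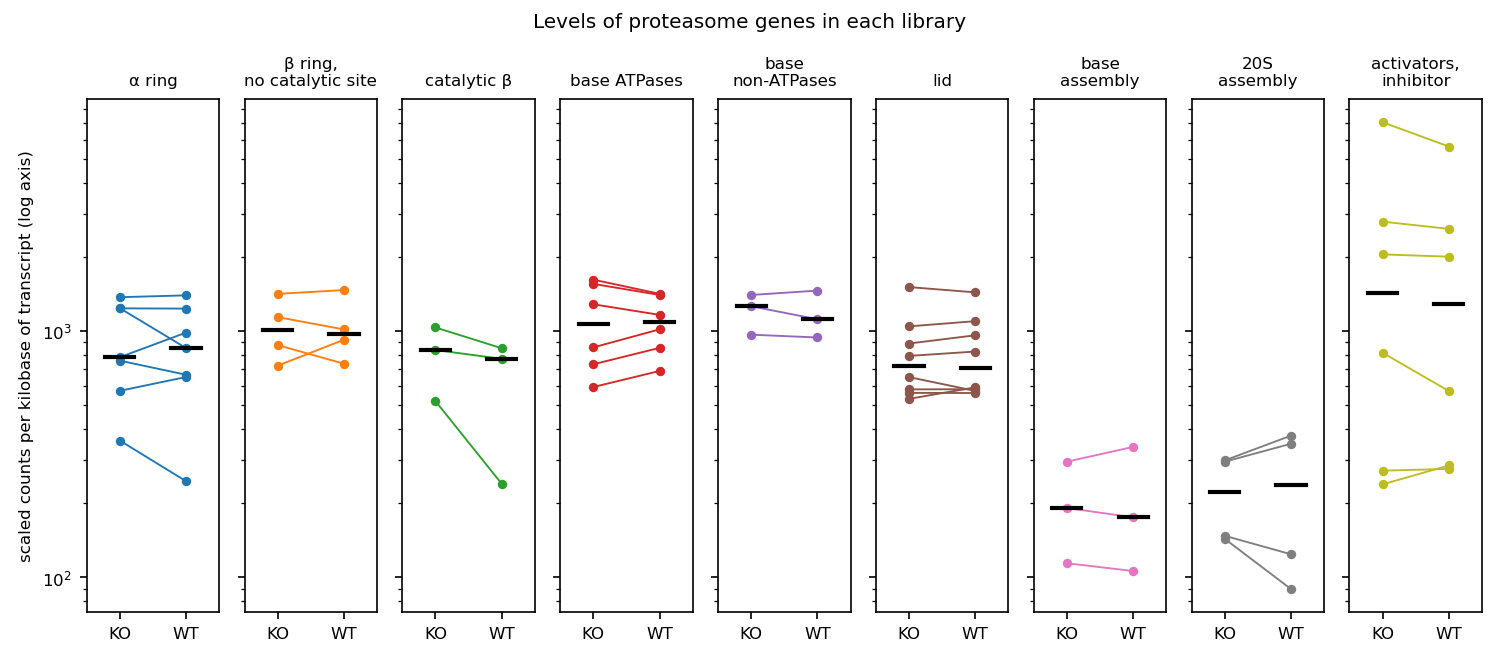
Scaled counts per kilobase of transcript (log axis) of 44 proteasome genes in the KO and the WT library, by role. Each line joins a gene across the libraries, black bars are group medians, and the medians of the assembly factors lie below those of the core and 19S subunits. The line of Psmb5 is the steepest among the catalytic subunits.

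The ratio moved with GC content, in the members as in the whole table. Across genes, which share the libraries and are not independent replicates, the Spearman correlation between log2 ratio and transcript GC content was 0.43 over 10851 expressed genes and 0.43 over the 45 members. Members with a GC content of 49.7% or more had a median log2 ratio of 0.14, and those below had -0.07. A smooth curve of the ratio on transcript GC content and length was then fitted to all expressed genes and subtracted, and these medians were 0.11 and 0.07. Psmb5, with a GC content of 56.6%, then stood at 0.81 on the log2 scale (1.76-fold, 1.47 to 2.12). Psma2, with a GC content of 39.4%, moved the other way, to 0.79, past 1.5-fold, and Psmg3 moved to 0.38, under it. The lower ATPases stood at -0.09 for Psmc2, -0.08 for Psmc1 and 0.08 for Psmc6, and Psmb1 at -0.14, against -0.35 as scaled. Other members moved away from no difference, such as Psmd3 from -0.07 to -0.31 and Psmd6 from 0.19 to 0.35.

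**Figure D4:**
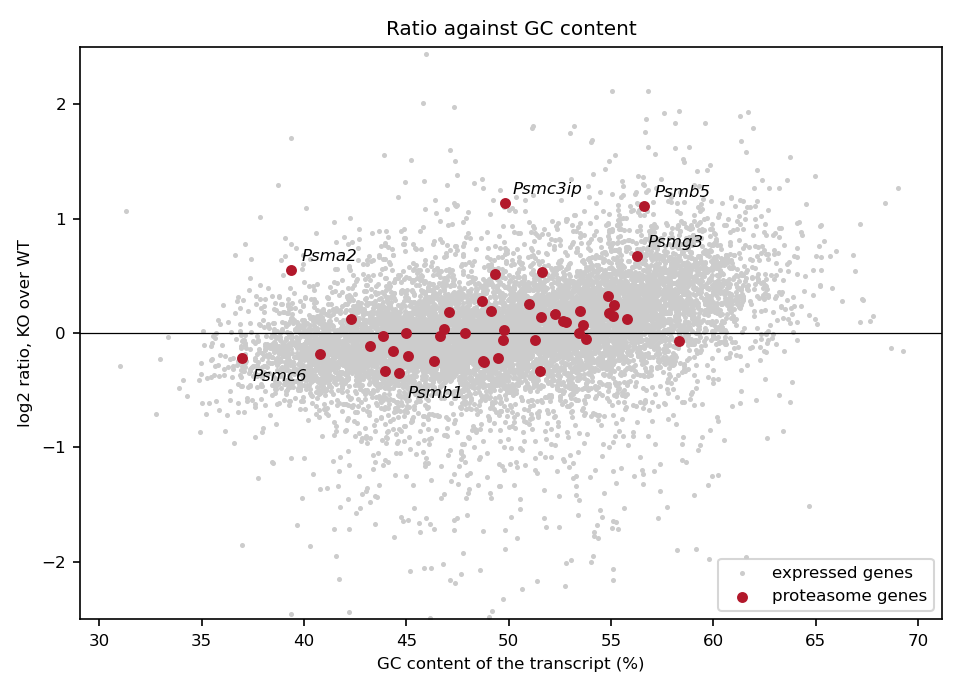
Log2 ratio of the KO over the WT library against GC content of the transcript for expressed genes (grey) and the 45 proteasome-family genes over the floor (red). In both sets the ratios tend to be higher at higher GC content, and the vertical axis is limited to 2.5 on either side of 0, which leaves 26 expressed genes outside the plot.

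Genes that work with the proteasome but carry other symbols were taken from 4 lists. Of 12 measured proteasome-bound factors none was past 1.5-fold in either direction, where 7.43% of all expressed genes were higher and 5.51% lower. The median log2 ratio of the 12 was -0.04. Adrm1, a ubiquitin receptor of the 19S particle, had 2056 reads in the KO library and 802 in the WT library (1.33-fold higher, 1.22 to 1.44). Zfand2a, a heat- and arsenite-inducible partner, was 1.41-fold higher (1.23 to 1.61). The small lid subunit Shfm1 was 1.3-fold higher (1.10 to 1.52), whereas the deubiquitinase Usp14 was 1.16-fold lower (1.04 to 1.28). Pomp, which matures the core, had 1342 reads in KO and 677 in WT and did not differ detectably (0.934 to 1.13). With the trend removed, Adrm1 was at 0.10 on the log2 scale and Shfm1 at 0.68, past 1.5-fold. Usp14 was then at -0.01 and Pomp at 0.18. The intervals of Adrm1 (0.988 to 1.17) and Usp14 (0.896 to 1.10) then included no difference, and that of Pomp lay above it. The exons of Usp14 share 2169 bases with those of Thoc1 on the opposite strand. The strand setting of the counts is not stated, so the count of Usp14 is less certain.

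Among factors that carry ubiquitylated proteins to the proteasome, none of 12 was past 1.5-fold, 6 had intervals above no difference and 2 below, against 29.1% and 25.6% of all expressed genes. Their median log2 ratio was 0.18. The shuttle factors Ubqln4 and Ubqln2 were each 1.37-fold higher (1.28 to 1.47 and 1.27 to 1.47). The shuttle factor Rad23b was 1.16-fold lower (1.09 to 1.23), and the unfoldase Vcp, with 9963 reads in KO and 5773 in WT, 1.12-fold lower (1.08 to 1.16).

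Regulators of proteasome gene transcription had a median log2 ratio of 0.09 over 10 genes. Nfe2l1 had 3642 reads in the KO library and 1766 in the WT library (1.07-fold higher, 1.01 to 1.13). Nfe2l2 had 1453 and 724 in KO and WT (0.949 to 1.14), and Ngly1, which processes Nrf1, 1618 and 829 (0.928 to 1.10). Keap1, the adaptor that targets Nrf2 for degradation, was 1.29-fold higher (1.19 to 1.4). With the trend removed, Keap1 stood at 0.09 and Nfe2l1 at -0.02 on the log2 scale, both with intervals that included no difference. Nfe2l2 was then 1.15-fold higher (1.05 to 1.26) and Ngly1 1.16-fold higher (1.07 to 1.26). Maff, a small Maf partner, was the 1 gene of these 10 past 1.5-fold, where 7.43% of all expressed genes were higher and 5.51% lower. It had 73 reads in KO and 22 in WT (1.72-fold higher, 1.05 to 2.90). With the trend removed, its log2 ratio was 0.57, short of that line. The NF-Y subunit Nfyb was 1.36-fold lower (1.23 to 1.5), while Nfya and Nfyc had log2 ratios of 0.09 and 0.14. With the trend removed, the log2 ratios were -0.20 for Nfyb, 0.14 for Nfya and 0.27 for Nfyc.

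The last list held genes that supply or activate ubiquitin. The polyubiquitin gene Ubb had 6171 reads in the KO library and 3153 in the WT library, a ratio of 1.01 (0.970 to 1.06). Rps27a, which encodes ubiquitin fused to a ribosomal protein, had 24454 reads in KO and 8114 in WT (1.56-fold higher, 1.52 to 1.60). Uba1, the main ubiquitin-activating enzyme, was 1.17-fold higher (1.14 to 1.20), and Uba6, which also activates ubiquitin, was 1.26-fold lower (1.10 to 1.45). With the trend removed, the interval of Uba6 (0.781 to 1.03) included no difference. The log2 ratio of Rps27a was then 0.56, short of 1.5-fold. Its exons share 160 bases with those of Clhc1 on the opposite strand, and reads of near-identical ubiquitin sequences can align to several places.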

How the data were processed

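RNA of sorted Treg cells was captured on oligo-dT beads and made into libraries with a transposase-based kit, per the labels' protocols. TopHat2 2.0.3, HTSeq and mm10 are named in the submitters' processing notes. Neither the annotation nor the strand setting is stated in the sources used. The authors deposited raw read counts per gene. The counter's 5 categories outside genes held 23.4% of reads in both libraries and were left out of library sizes.

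Counts were scaled by TMM (0.974 for KO, 1.03 for WT; edgeR 4.0.16 under R 4.3.3) to the mean effective library size. Log2 ratios of KO over WT use a pseudocount of 1, and calls use 1.5-fold on that ratio. Folds and their exact conditional binomial (Clopper-Pearson) 95% intervals use no pseudocount. No test was possible without replicates. The ratio and interval code was tested on simulated data. Positions, lengths and GC content came from GENCODE M21 (GRCm38, the build mm10) for all 47 members and 99.6% of expressed genes. The GC and length trend was fitted with mgcv 1.9.3. Intervals with the trend removed are the counting intervals shifted by the fitted value, and they hold no error of the fit. Exons of 13 members overlap another gene in this annotation, 4 of them on the same strand. DESeq2 1.42.0 size factors, total counts, other floors, pseudocounts and thresholds were alternatives.

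All members are given with counts. Folds are given for the catalytic subunits, members past 1.5-fold and the highest and lowest of each role, and for others where the interval excludes no difference. The members and lists were chosen with earlier results of these data known. The targeted gene and some genes of the other lists are not reported here, so the titles were not checked against the targeted gene. The labels mention no molecular identifiers, so repeat reads of 1 molecule cannot be told apart, and intervals that treat reads as independent can be too narrow. With 1 library per group, the intervals cover counting error only.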

Additional observations from a re-analysis of the deposited data

How the results depend on the processing

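Psmb5 stayed 1.5-fold or more above its WT level in the KO library under each of the scalings, floors, pseudocounts and trend removal tried. The number of members at least 1.5-fold higher was 3 with total-count scaling, DESeq2 size factors, a pseudocount of 5 or the GC and length trend removed, but in the last of these Psma2 took the place of Psmg3. It was 7 with the threshold set at 0.32 on the log2 scale, 2 at 2-fold, with a floor of 100 reads or without Psmc3ip, and 1 when the lower bound of the counting interval had to pass 1.5-fold, a rule added after seeing the data. This 1 member was Psmb5 as scaled. With the trend removed, the interval of Psma2 lay above 1.5-fold (1.56 to 1.93) and that of Psmb5 did not (1.47 to 2.12). Both intervals overlap and leave out the error of the fitted trend. The number at least 1.5-fold lower was 0 throughout, and 3 at the threshold of 0.32. With the trend removed, 534 of the 10899 expressed genes were at least 1.5-fold higher and 546 at least 1.5-fold lower. Shares over all expressed genes were not computed at the other alternative settings, nor for the intervals that follow. Intervals above and below no difference numbered 10 and 16 with total-count scaling, and 22 and 7 with the trend removed, 4 of the 7 among the 11 as scaled; the cause was not tested. The median log2 ratio was 0.10 with the trend removed and -0.04 with total-count scaling, which put the median of all expressed genes at -0.06. Directions of members with small ratios therefore depend on the scaling: 5 changed sign with total-count scaling and 10 with the trend removed. Members with few reads, above all Psmg3, Psmg4 and Psmc3ip, are limited by depth. No paired analysis was possible because there was 1 library per group, and no library could be left out.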
